A study of Mus musculus with 4 samples.

Results

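The insulin-like growth factor (IGF) family was measured as 10 genes, Igf1, Igf2, Igf1r, Igf2r, Igfbp2, Igfbp3, Igfbp4, Igfbp5, Igfbp6 and Igfbp7, taken as every array probe whose gene name is one of these symbols. They are read by 17 probes of the 41174 different probes on the array, and by 35 of its 43379 spots, because the main probes for Igf1 and Igf2 were printed 10 times each. RNA from cultured STMN1-/- mouse embryo fibroblasts (MEFs) was set against RNA from STMN1+/+ MEFs on each of 4 Agilent 2-color arrays of 60-base probes. All cells were C57BL/6 and came from single mid-gestation embryos of STMN1+/- crosses, grown in medium with fetal bovine serum and no treatment. In the STMN1-/- cells a neomycin cassette disrupts the gene for stathmin, a protein that destabilizes microtubules, in every cell and from conception. STMN1-/- RNA carried Cy3 on replicates 1 and 2 and Cy5 on replicates 3 and 4. Neither labels nor methods say which embryo's cells each array held, and the spread behind the p-values is that of the arrays, which may be no more than technical.

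IGF1 and IGF2 are secreted growth factors that signal through the receptor tyrosine kinase IGF1R, whereas IGF2R takes up IGF2 and carries it to lysosomes for breakdown. IGF binding proteins (IGFBPs) hold the ligands outside the cell, prolonging their life or keeping them from the receptor, and proteases that cut IGFBPs release the ligand again. Embryonic fibroblasts secrete both ligands and several IGFBPs, and IGF1R signaling is needed for their normal growth and for their transformation by many oncogenes.

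Among the probes, 3 that hold an open reading frame with cysteine codons are printed 5′ to 3′ to show what was hybridised for the ligand Igf1, for Igfbp3 and for Igfbp4. Capitals mark cysteine codons, TGT or TGC, in the forward reading frame that is open and holds the most of them. Disulfide-bonded cysteines shape the ligand and the end domains of the IGFBPs, but which domain a printed stretch encodes was not assigned. The positions are those of the array design on mouse build mm7, for which no annotation was at hand, so exon, intron and coding sequence were not assigned.
Igf1 A_52_P536434, chr10:87471884-87471943: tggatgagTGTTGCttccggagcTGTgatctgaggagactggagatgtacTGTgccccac
Igfbp3 A_51_P228472, chr11:7160474-7161483: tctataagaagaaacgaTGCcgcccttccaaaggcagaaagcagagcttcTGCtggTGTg
Igfbp4 A_51_P398971, chr11:99157316-99157375: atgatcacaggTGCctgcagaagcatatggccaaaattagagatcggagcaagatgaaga
The Igf1 stretch holds 4 cysteine codons, the Igfbp3 stretch 3 and the Igfbp4 stretch 1. The Igfbp3 stretch spans more genome than its 60 bases, so its positions do not form 1 unbroken piece of the genome.

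The family had 5 genes up-regulated in STMN1-/- MEFs, and the rest did not pass the test. With each gene taken by its brightest probe, the ligand Igf1, the IGF2 clearance receptor Igf2r and the binding proteins Igfbp3, Igfbp5 and Igfbp7 were higher, 5 of 10 genes, where 13.4% of 14264 named genes were higher. Counted by probe, 9 of 17 were higher, where 11.2% of the 27724 probes tested were, at an adjusted p under 0.05 (limma against 0, two-sided, Benjamini-Hochberg over all probes tested). All 17 probes were bright enough to be tested. The number of probes called lower was 0 of 17, where 11.1% of all probes were lower. The methods' t-test also called 0 lower, but 3 were lower with a dye coefficient, 2 with replicates 1 and 4, and 2 and 3, averaged, and 1 with normexp and loess. Over all probes, a dye coefficient called 5346 of 27428 lower, the averaged replicates 3705 of 26607, and normexp and loess 1143 of 27724. At an unadjusted p under 0.05 there were 10 of 17 in either direction, where 10281 of 27724 probes had one, and only Igfbp2 was lower among these. The median log2 ratio of STMN1-/- over STMN1+/+ was 0.35 over the 17 probes and 0.00 over all probes tested. In RNA from whole cultures, more cells of one kind and more RNA per cell cannot be told apart.

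**Figure D1:**
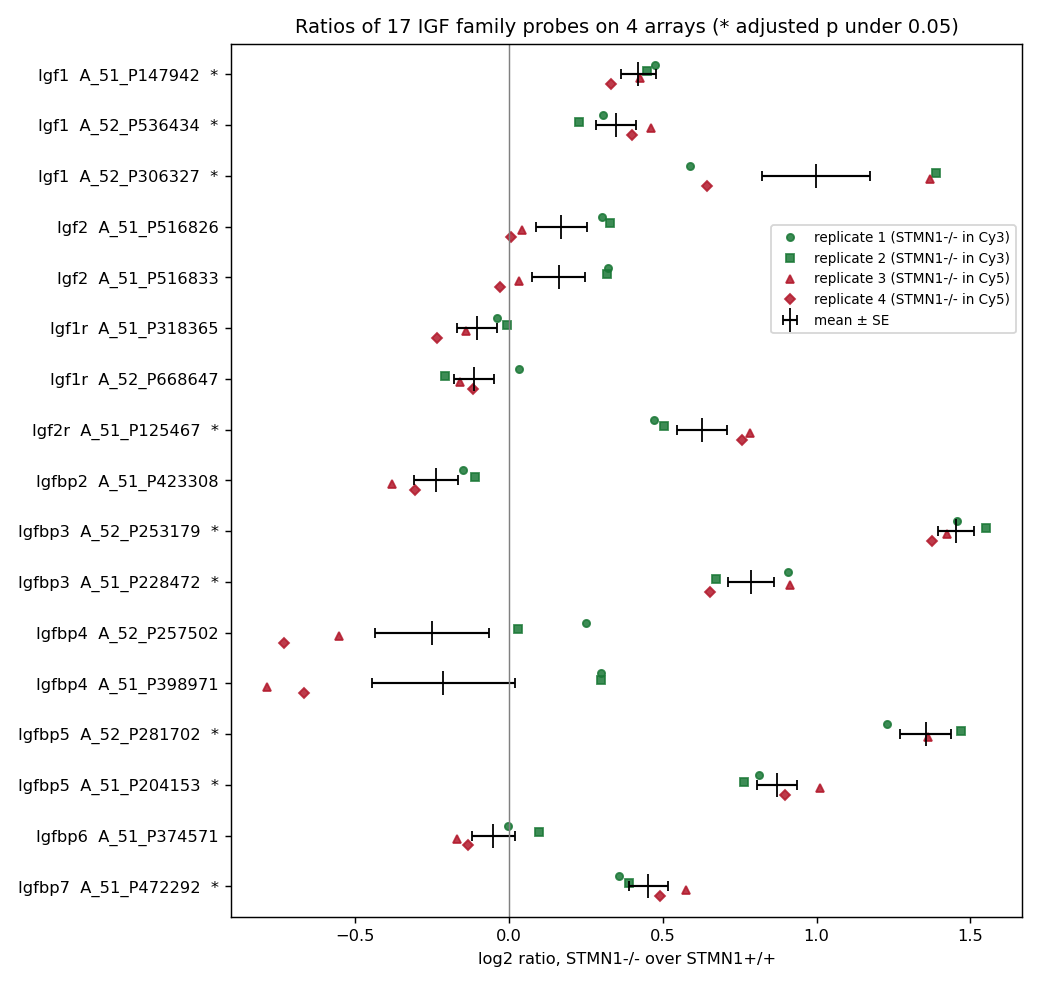
Log2 ratio of STMN1-/- over STMN1+/+ for each of the 17 IGF family probes (rows), with 1 point per array, colored by the dye of the STMN1-/- RNA, and the mean ± limma's standard error (SE) in black. Igfbp3 A_52_P253179 and Igfbp5 A_52_P281702 lie farthest to the right at 1.45 and 1.35, and the Igfbp4 points lie on both sides of 0 by dye.

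Igf1, the ligand whose transcription growth hormone drives in liver and which many mesenchymal cells also make, was up-regulated about 1.3 fold by its main probes. Probe A_51_P147942 (chr10:87488982-87489041, mm7) had processed signals of 6207, 6639, 5863 and 6290 in STMN1-/- MEFs on replicates 1 to 4, against 4470, 4870, 4364 and 4995 in STMN1+/+ MEFs. Every STMN1-/- signal lay above every STMN1+/+ signal. Here and below, such ranges pool the arrays, whereas the test compares the genotypes within each array. How many of all probes tested separate in this way was not counted. The log2 ratio of A_51_P147942 was 0.42 (SE 0.056, n = 4 arrays), a fold of 1.34, with an adjusted p of 0.00894 from limma. The 10 spots of this probe gave log2 ratios between 0.27 and 0.67 over the 4 arrays, so each printed copy read higher in STMN1-/- MEFs on every array. Probe A_52_P536434, printed above, had signals of 5189, 5899, 5744 and 6026 in STMN1-/- MEFs, against 4204, 5035, 4176 and 4573 in STMN1+/+ MEFs. These ranges did not overlap either, and the log2 ratio of 0.35 (SE 0.064) had an adjusted p of 0.0208 from limma. With any 1 array left out, the adjusted p of this probe was 0.0549 to 0.0855, and with normexp background correction and loess it was 0.0836, so the call was lost each time.

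The third Igf1 probe, A_52_P306327 (chr10:87420848-87420907), was designed on a separate cDNA clone and lies 50976 bases to the 5′ side of A_52_P536434. Its signals were 594, 300, 236 and 262 in STMN1-/- MEFs, against 395, 114, 91.4 and 168 in STMN1+/+ MEFs. STMN1-/- was the higher on every array, but the 2 ranges overlapped, and the STMN1+/+ signal was well above background on only 2 of the 4 arrays. The log2 ratio of 1.00 (SE 0.18, adjusted p = 0.0183 from limma) was 0.17 with normexp and loess, at an adjusted p of 0.138. Without replicate 2 the adjusted p was 0.0646, and without replicate 3 it was 0.0632. Within the arrays, the ratio of A_51_P147942 less that of A_52_P306327 averaged -0.58, but with normexp and loess the order turned, at 0.29 for A_51_P147942 against the 0.17 above, so no order of these probes is given.

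Igf2, the fetal ligand and an imprinted gene expressed from the paternal copy in most embryonic tissues, was not called. Probe A_51_P516826 (chr7:139078075-139078135) had signals of 342850, 378680, 308200 and 367490 in STMN1-/- MEFs, against 277920, 302020, 299280 and 365910 in STMN1+/+ MEFs. The ranges overlapped, and the distance between the genotypes went with the dye. Log2 ratios were 0.30 and 0.33 with STMN1-/- RNA in Cy3, and 0.04 and 0.01 with it in Cy5. The mean of 0.17 (SE 0.082) had an adjusted p of 0.207 from limma. The second Igf2 probe, A_51_P516833, gave the same picture, with 0.32 and 0.32 in Cy3, 0.03 and -0.03 in Cy5, and a mean of 0.16 (SE 0.088, adjusted p = 0.253 from limma). With the dye orientation as a second coefficient, the adjusted p-values of these probes were 0.029 and 0.0348 at the same means. A difference between orientations as large as that of A_51_P516826 was seen in 37.4% of probes with a value on every array. For A_51_P516833 this share was 33.3%.

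Of the 2 receptor genes, 1 was called, where 13.4% of 14264 named genes were higher and 12.2% lower. Igf2r, which encodes the cation-independent mannose phosphate receptor that also sorts lysosomal enzymes, was up-regulated 1.55 fold. Its single probe A_51_P125467 (chr17:11399590-11399648) had signals of 64584, 80473, 71810 and 80217 in STMN1-/- MEFs, against 46636, 56738, 41695 and 47508 in STMN1+/+ MEFs. The genotypes did not overlap. Its log2 ratios were 0.47 and 0.50 in Cy3 and 0.78 and 0.76 in Cy5, with a mean of 0.63 (SE 0.081, adjusted p = 0.00793 from limma). Over the 14 alternative ways of processing the value stayed between 0.58 and 0.68, with an adjusted p of at most 0.0415.

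Igf1r, the signaling receptor, was not called by either of its probes, which lie 38981 bases apart. A_51_P318365 had signals of 6164, 6581, 5997 and 6619 in STMN1-/- MEFs, against 6336, 6611, 6603 and 7796 in STMN1+/+ MEFs. STMN1-/- was the lower on all 4 arrays, with a log2 ratio of only -0.01 on replicate 2, and the ranges overlapped. The means were -0.11 (SE 0.065, adjusted p = 0.303) for this probe and -0.11 (SE 0.065, adjusted p = 0.27) for A_52_P668647, both from limma. The second probe was the higher in STMN1-/- on replicate 1, at 0.03. The difference between Igf2r and Igf1r was not tested.

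**Figure D2:**
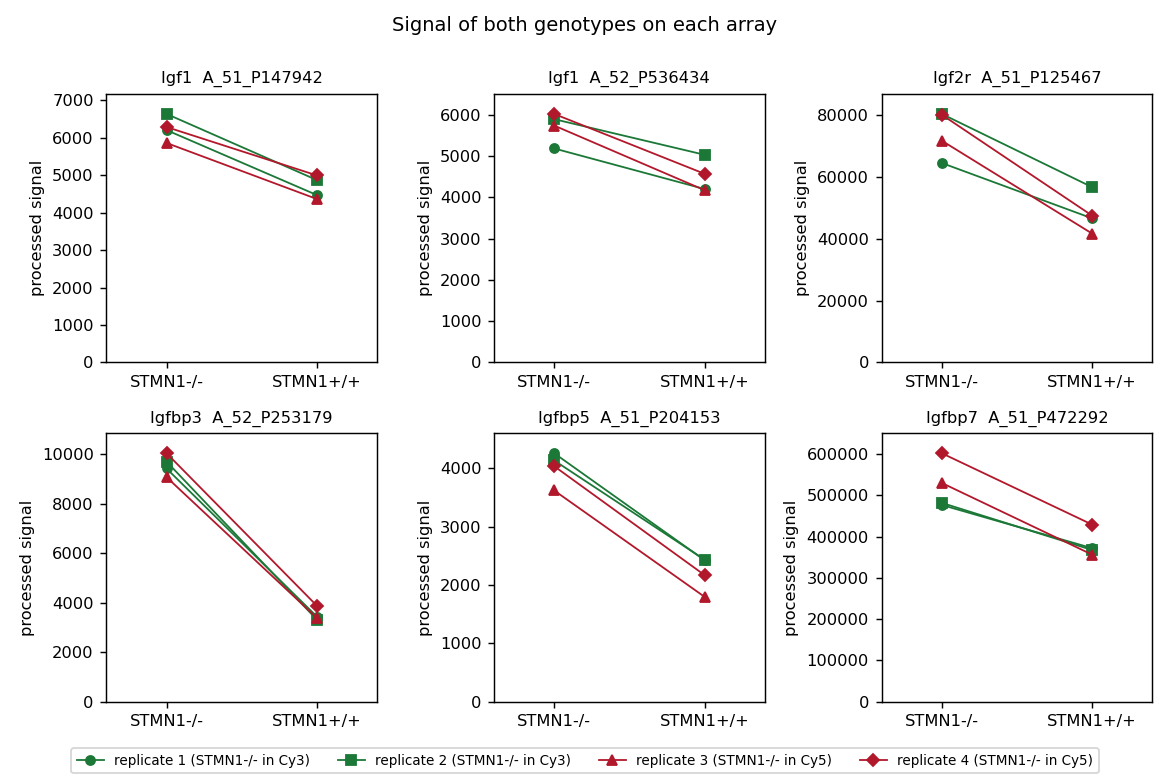
Processed signal (linear, from 0) in STMN1-/- MEFs at left and STMN1+/+ MEFs at right, with 1 line per array, for 6 probes of the 5 up-regulated genes. Every line falls to the right, and in each panel the lowest STMN1-/- signal lies above the highest STMN1+/+ signal, as with 3620 to 4257 against 1796 to 2434 for Igfbp5 A_51_P204153. Not shown are the called probes Igf1 A_52_P306327, whose ranges overlapped, Igfbp3 A_51_P228472, whose ranges nearly met, and Igfbp5 A_52_P281702. The share of all probes tested that separate in this way was not counted.

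Igfbp3, which carries most IGF in serum and can hold IGF away from cells, had the largest mean ratio of the 17 probes with the processed signals. Probe A_52_P253179 (chr11:7158599-7158658) had signals of 9413, 9693, 9065 and 10030 in STMN1-/- MEFs, against 3430, 3305, 3376 and 3867 in STMN1+/+ MEFs. The genotypes were far apart and the arrays close together: the log2 ratios ran between 1.37 and 1.55. The mean of 1.45 (SE 0.059) was a fold of 2.74, with an adjusted p of 0.000698 from limma. It lay at the 99.5 percentile of the log2 ratios of all probes tested. Called higher with a fold of at least 2 were 2 of the 17 family probes, this one and Igfbp5 A_52_P281702, where 1.36% of all probes tested were.

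The other probe of Igfbp3, A_51_P228472, printed above, lies 1815 bases away and gave a smaller ratio. Its signals were 437, 355, 268 and 420 in STMN1-/- MEFs, against 233, 223, 142 and 267 in STMN1+/+ MEFs. STMN1-/- was the higher on every array, and the lowest STMN1-/- signal stood just above the highest STMN1+/+ signal. The mean log2 ratio was 0.79 (SE 0.075, adjusted p = 0.0036 from limma). Within the arrays the ratio of A_52_P253179 exceeded that of A_51_P228472 by 0.51 to 0.88, a mean of 0.67. An exact sign-flip permutation test over 4 arrays cannot reach the threshold of 0.05, and this difference had the smallest two-sided p it can give. With normexp and loess, A_51_P228472 had a log2 ratio of 0.18 (adjusted p = 0.116) and A_52_P253179 one of 1.07 (adjusted p = 0.0137), below the 1.30 of Igfbp5 A_52_P281702 under the same setting. The dye mattered little for Igfbp3, and the mean log2 ratio with STMN1-/- RNA in Cy5 less that in Cy3 was -0.10 for A_52_P253179 and -0.01 for A_51_P228472.

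Igfbp5, a binding protein that attaches to the extracellular matrix and is the most conserved of the IGFBPs, was up-regulated by both of its probes. A_51_P204153 (chr1:73102653-73102712) had signals of 4257, 4134, 3620 and 4036 in STMN1-/- MEFs, against 2424, 2434, 1796 and 2169 in STMN1+/+ MEFs. The groups did not overlap, and the mean log2 ratio was 0.87 (SE 0.066, a fold of 1.83, adjusted p = 0.00203 from limma). A_52_P281702 (chr1:73100116-73100175) had signals of 252810, 284180 and 258950 in STMN1-/- MEFs on replicates 1 to 3, against 107830, 102560 and 100720 in STMN1+/+ MEFs. Its spot on replicate 4 was marked as an outlier and left out, so its mean of 1.35 (SE 0.082, n = 3 arrays, a fold of 2.56, adjusted p = 0.0026 from limma) weighs the Cy3 orientation more. With that spot kept the log2 ratio was 1.32. On the 3 arrays with both, the ratio of A_52_P281702 exceeded that of A_51_P204153 by 0.35 to 0.71, a mean of 0.49 (exact sign-flip permutation test, two-sided, p = 0.25, the smallest that 3 arrays allow).

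Igfbp2, a binding protein high in fetal tissues, is the chromosomal neighbor of Igfbp5, and their nearest probes lie 6092 bases apart on chromosome 1 (mm7), read in opposite directions. Its signals with A_51_P423308 (chr1:73093964-73094023) were 27791, 29193, 25327 and 31416 in STMN1-/- MEFs, against 30857, 31535, 33011 and 38810 in STMN1+/+ MEFs. STMN1-/- was the lower on all 4 arrays, with a log2 ratio of -0.24 (SE 0.071), but the adjusted p was 0.0721 from limma. The ranges overlapped when pooled over arrays, which sets aside that both genotypes share each array. The adjusted p passed the threshold under 3 alternatives, at 0.0298 with normexp and loess, 0.017 with a dye coefficient and 0.0459 with replicates 1 and 4, and 2 and 3, averaged.

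Igfbp7, which binds IGFs only weakly and is a matrix protein of many mesenchymal cells, was up-regulated 1.37 fold. Probe A_51_P472292 (chr5:77280659-77280718) had signals of 476460, 481530, 529780 and 601770 in STMN1-/- MEFs, against 371710, 367280, 356000 and 428800 in STMN1+/+ MEFs. The genotypes did not overlap. The log2 ratio of 0.45 (SE 0.063) had an adjusted p of 0.00998 from limma, which was 0.0511 without replicate 4 and 0.0729 with normexp and loess.

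Igfbp6, which prefers IGF2 over IGF1, was not called. Probe A_51_P374571 had signals of 12846, 14991, 11578 and 13383 in STMN1-/- MEFs, against 12871, 14014, 13031 and 14670 in STMN1+/+ MEFs, and the ranges overlapped. The log2 ratio was -0.05 (SE 0.069, adjusted p = 0.637 from limma).

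Igfbp4, a binding protein that mainly inhibits IGF action until a protease cuts it, had a ratio whose sign followed the dye. A_51_P398971, printed above, had signals of 1488, 1654, 1167 and 1308 in STMN1-/- MEFs, against 1209, 1346, 2014 and 2078 in STMN1+/+ MEFs. STMN1-/- was the higher on both arrays where it carried Cy3 and the lower on both where it carried Cy5. The mean log2 ratios were 0.30 in Cy3 and -0.73 in Cy5, which leaves -0.21 (SE 0.23, adjusted p = 0.558 from limma) over 4 arrays. The other probe, A_52_P257502 (chr11:99161059-99161118), had signals of 3129, 3802, 3163 and 3027 in STMN1-/- MEFs, against 2632, 3725, 4638 and 5033 in STMN1+/+ MEFs. It turned the same way, with 0.14 in Cy3, -0.64 in Cy5 and a mean of -0.25 (SE 0.19, adjusted p = 0.386 from limma). A difference between orientations as large as that of A_51_P398971 was seen in 2.8% of the 26607 probes with a value on every array, and as large as that of A_52_P257502 in 6.06%. With the dye as a second coefficient, the adjusted p-values were 0.0244 and 0.0463 at the same means, but within the Cy3 arrays the ratios had the opposite sign, so no direction is given for Igfbp4.

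**Figure D3:**
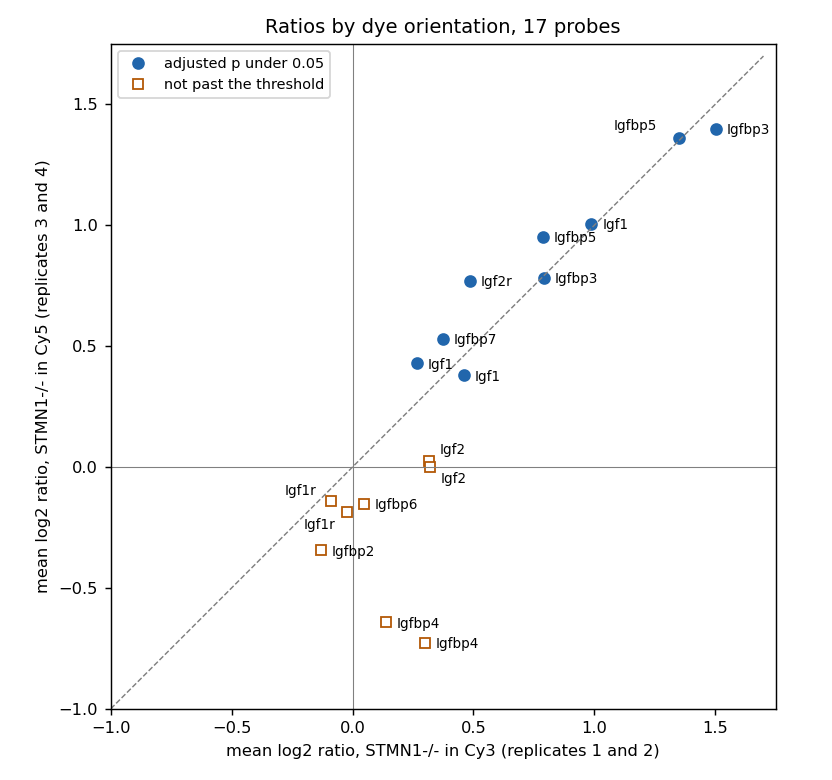
Mean log2 ratio of STMN1-/- over STMN1+/+ on the 2 arrays with STMN1-/- RNA in Cy3 (x axis) and on the 2 with it in Cy5 (y axis; 1 array for Igfbp5 A_52_P281702), 1 point per IGF family probe, with the dashed line where both are equal. The 9 called probes lie above 0 on both axes, whereas the Igfbp4 probes lie at 0.30 and 0.14 on the x axis and at -0.73 and -0.64 on the y axis.

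The start regions of 4 up-regulated genes are printed, picked from the family's start regions for the contrast between GC boxes and TATA-like letters. Each line is the 150 bases before the gene's start in RefSeq (build GRCm38.p6), 5′ to 3′ along the gene. Searched on both strands were GGGCGG, the core of the GC box that SP1-type factors bind, TATAAA, and TATNTA, a looser TATA-like form chosen after the letters were seen. Matches are in capitals.
Igfbp3, chr11:7213924-7214073, minus strand: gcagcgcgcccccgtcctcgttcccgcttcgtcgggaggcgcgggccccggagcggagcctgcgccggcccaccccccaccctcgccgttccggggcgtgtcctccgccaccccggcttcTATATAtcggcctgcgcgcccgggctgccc
Igfbp5, chr1:72874866-72875015, minus strand: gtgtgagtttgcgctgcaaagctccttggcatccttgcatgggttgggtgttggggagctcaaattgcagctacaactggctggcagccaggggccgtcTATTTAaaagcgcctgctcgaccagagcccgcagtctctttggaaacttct
Igf2r, chr17:12769707-12769856, minus strand: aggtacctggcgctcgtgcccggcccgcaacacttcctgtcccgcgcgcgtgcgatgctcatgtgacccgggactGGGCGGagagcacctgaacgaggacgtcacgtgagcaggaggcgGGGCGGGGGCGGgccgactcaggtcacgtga
Igfbp7, chr5:77408046-77408195, minus strand: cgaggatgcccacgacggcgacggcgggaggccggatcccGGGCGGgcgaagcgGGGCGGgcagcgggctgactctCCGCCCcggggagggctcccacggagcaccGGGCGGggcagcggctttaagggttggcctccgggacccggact
Igfbp3 and Igfbp5 hold 1 TATNTA each and 0 GC boxes, whereas Igf2r holds 3 GC boxes and Igfbp7 holds 4, and both hold 0 of the TATA forms. Over 32851 start regions of the same length in the table, 28.6% hold GGGCGG, 7.57% TATAAA and 15.2% TATNTA. A GC content of 78.7% in Igfbp3 stands beside 55.3% in Igfbp5, 70.7% in Igf2r and 78.0% in Igfbp7. The remaining up-regulated gene, Igf1, holds 1 TATNTA. The same letters stand before genes that were not called: Igf1r holds 2 GC boxes, 1 of 2 start regions of Igfbp2 holds 3, 2 of 4 start regions of Igf2 hold 1 and 2, Igfbp4 holds 1 TATAAA, and Igfbp6 holds 1 TATAAA and 1 TATNTA. A match is a description of the letters and not of a bound site.

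Around the family, 50 other genes of the IGF pathway were listed, of which 45 were tested by their brightest probe. Of these, 4 were higher, where 13.4% of named genes were, and 3 were lower, where 12.2% were, so neither count stood above the background. The median log2 ratio was 0.09 over the 45 genes and 0.01 over all named genes.

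The proteases that cut IGFBPs, with their inhibitors, held 3 of the 4 higher genes, out of 6 tested, where 13.4% of named genes were higher. Pappa, the metalloprotease that cuts IGFBP4, IGFBP2 and IGFBP5 and so frees IGF, had signals of 30536, 26539, 23928 and 29208 in STMN1-/- MEFs, against 14720, 12759, 10574 and 12990 in STMN1+/+ MEFs. The genotypes did not overlap on this probe, and the fold was 2.17 (log2 ratio 1.11, SE 0.058, adjusted p = 0.000863 from limma). Its second probe gave a log2 ratio of 1.22 (SE 0.067, adjusted p = 0.000985). Stc2, a secreted inhibitor of that protease, stood at 0.24 on the log2 scale (SE 0.053, adjusted p = 0.0326), which lost its call when any 1 array was left out, at adjusted p-values of 0.0888 to 0.121. Adam12, a protease that cuts IGFBP3 and IGFBP5 in human work, had a mean log2 ratio of 0.60 (SE 0.097, adjusted p = 0.0141). Without replicate 2 its adjusted p was 0.0595, without replicate 4 it was 0.0625, and its other probe gave 0.17 (adjusted p = 0.226).

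Among 6 regulators of the ligands tested, 2 were lower and 0 higher, where 12.2% of named genes were lower and 13.4% higher. Stat5b was not called by its brightest probe, but its probe A_52_P663027 was called higher at 0.33 (adjusted p = 0.03 from limma). Ghr, the growth hormone receptor through which liver Igf1 is induced, had signals of 18301, 18668, 19664 and 19907 in STMN1-/- MEFs, against 26480, 26310, 28479 and 31142 in STMN1+/+ MEFs. The groups did not overlap, the log2 ratio was -0.55 (SE 0.057, adjusted p = 0.00445 from limma), and all 5 Ghr probes were called lower. Igf2bp1, an RNA-binding protein that binds Igf2 mRNA, stood at -0.37 on the log2 scale (SE 0.07, adjusted p = 0.0219). Each of its 3 probes was called lower. Without replicate 2 the adjusted p of this probe was 0.0705, and without replicate 3 or 4 it was 0.086.

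Downstream of the receptors, 0 of the 10 adaptors and phosphatases tested were called, with 1 of 10 at an unadjusted p under 0.05, where 5724 of 14264 named genes had one. Irs1, the main docking protein of IGF1R, had a mean log2 ratio of -0.01 (SE 0.058, adjusted p = 0.888), though its other probe was called lower at -0.35 (SE 0.058, adjusted p = 0.0151), so its probes disagree. Of 19 genes of the PI3K-Akt-FoxO branch, 1 was higher and 1 lower, where 13.4% of named genes were higher and 12.2% lower. Pik3r1 was not called by its brightest probe, at 0.12 (adjusted p = 0.238 from limma). Its probes A_52_P407239 and A_52_P235476 were called higher, at 0.39 (adjusted p = 0.0128) and 0.24 (adjusted p = 0.0441). Pik3cb, a catalytic subunit of PI3K, had signals of 402, 355, 431 and 527 in STMN1-/- MEFs, against 1048, 1128, 1359 and 1458 in STMN1+/+ MEFs. The log2 ratio was -1.54 (SE 0.074, adjusted p = 0.000808 from limma), and -0.70 with normexp and loess, at an adjusted p of 0.0523. Pik3r2, a regulatory subunit of PI3K, was higher by 0.37 (SE 0.062, adjusted p = 0.0156), with adjusted p-values of 0.0642 to 0.0709 without replicate 1, 2 or 3. Among the other ligands, receptors and carriers, 0 of 4 tested were called (0 at an unadjusted p under 0.05). Insr, the insulin receptor, had a mean log2 ratio of 0.01 (SE 0.12, adjusted p = 0.97). Igfbp1, the insulin-regulated IGFBP of liver, stayed at background level on all arrays in both genotypes (not well above background).

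**Figure D4:**
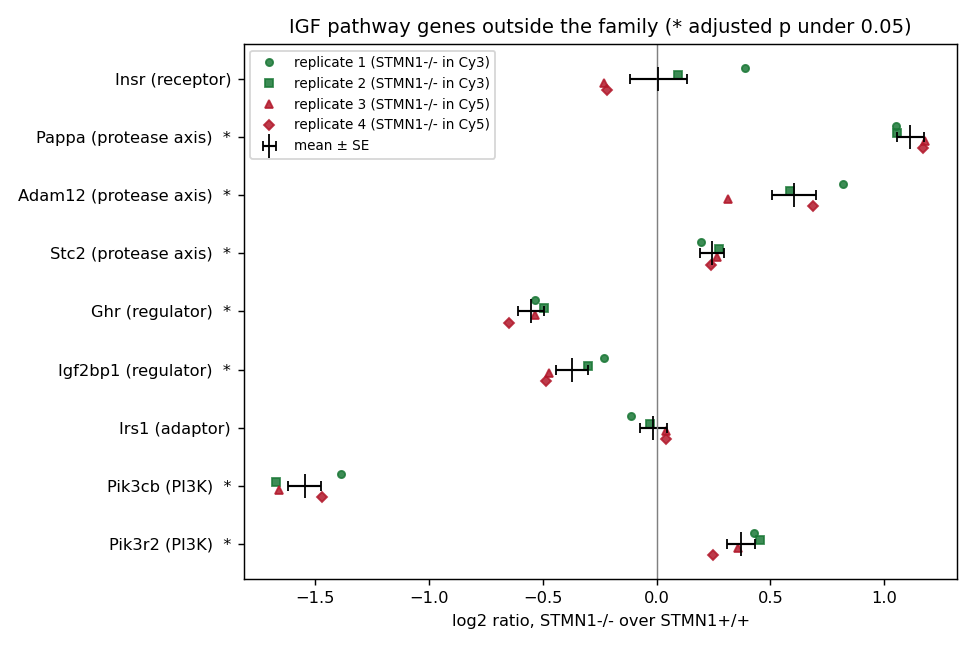
Log2 ratio of STMN1-/- over STMN1+/+ on each array for 9 pathway genes outside the family (rows, ordered by role), colored by the dye of the STMN1-/- RNA, with the mean ± limma's SE in black. Pappa lies at 1.11 and Pik3cb at -1.54, with all 4 points on 1 side of 0, whereas the Insr points lie on both sides.

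Several facts of the cultures stand beside these ratios. Stmn1 itself was lower on every array by both of its probes, with log2 ratios of -2.16 (SE 0.063) for A_52_P319161 and -0.39 (SE 0.07) for A_51_P495641. The signals of A_52_P319161 were 5115, 5863, 6076 and 7002 in STMN1-/- MEFs, against 24158, 27182, 26866 and 28540 in STMN1+/+ MEFs. Without replicate 1, 2 or 3 the adjusted p of A_51_P495641 was 0.066 to 0.0781. Whether these probes also bind other transcripts was not analysed here, so their signal in STMN1-/- MEFs is not read as Stmn1 mRNA left in those cells. Beside the marker counts that follow, 13.4% of 14264 named genes were higher and 12.2% lower. All 9 fibroblast markers were well above background on every array in both genotypes, and 7 were higher and 1, Vim, was lower, with Col1a1 at 1.28 and Pdgfrb at 1.04. Their summed signals per array were 4010000 to 6310000 in STMN1-/- MEFs and 3730000 to 4380000 in STMN1+/+ MEFs, so those ranges overlap. A large part of these sums is 1 probe of S100a4, with 772940 to 2171900 in STMN1-/- MEFs and 1664000 to 2447200 in STMN1+/+ MEFs. Its log2 ratios went with the dye, at -1.54 and -1.38 with STMN1-/- RNA in Cy3 and 0.08 and 0.38 in Cy5. S100a4 was not called (adjusted p = 0.309 from limma), and a sum without it was not taken. All 5 epithelial markers tested were called lower, Cdh1 among them, though Cdh1 was not well above background on any STMN1-/- array and Epcam on none of either genotype. The epithelial sums were 46300 to 53200 in STMN1-/- MEFs and 60500 to 68000 in STMN1+/+ MEFs. Most of these sums is Krt18, with 26767 to 30486 in STMN1-/- MEFs and 32335 to 36835 in STMN1+/+ MEFs, together with Krt8. Of 6 adipocyte markers 3 were lower, with sums of 8130 to 9850 in STMN1-/- MEFs and 15700 to 16600 in STMN1+/+ MEFs. Most of the adipocyte sum is Fabp4 and Pparg, both called lower. The third, Adipoq, was not well above background on any STMN1-/- array. Plin1 was so on 1 STMN1+/+ array only, and Lep on none of either genotype. Of 7 macrophage markers tested 2 were higher and 2 lower, with sums of 128000 to 149000 in STMN1-/- MEFs and 153000 to 175000 in STMN1+/+ MEFs. Most of that sum is 1 probe of Lyz2, with 119060 to 139530 in STMN1-/- MEFs and 142690 to 164850 in STMN1+/+ MEFs. This probe was not called (adjusted p = 0.0858 from limma), and the other Lyz2 probe was called lower at -0.44 (adjusted p = 0.00655). Aif1 at 1.00 and Csf1r at 0.28 were called higher, whereas Cd14 at -0.48 and Cd68 at -0.28 were called lower. The other Csf1r probe was not called, at 0.13 (adjusted p = 0.675 from limma). Of 5 muscle markers tested 2 were higher, with sums of 56700 to 78800 in STMN1-/- MEFs and 51300 to 68600 in STMN1+/+ MEFs. Most of the muscle sum is Acta1, with 45670 to 66002 in STMN1-/- MEFs and 42517 to 57922 in STMN1+/+ MEFs. Acta1 was not called (adjusted p = 0.117 from limma). The endothelial markers Pecam1, Cdh5 and Tie1 were not well above background in either genotype, and of the 3 others 1 was higher and 1 lower, with sums of 2650 to 2870 in STMN1-/- MEFs and 2700 to 3190 in STMN1+/+ MEFs. Of 4 reference genes tested, Actb and Hprt had log2 ratios of -0.41 and -0.41 and were called lower, while Gusb at -0.09 (adjusted p = 0.353 from limma) and Hsp90ab1 at -0.03 (adjusted p = 0.772) were not called. The part of these shifts in the IGF family ratios was not tested.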

How the data were processed

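Each of 4 arrays carried STMN1-/- and STMN1+/+ MEF RNA, with the dyes swapped on replicates 3 and 4, on 1 slide in 1 scan. The deposited intensity values are processed signals which, per the file headers, Feature Extraction 9.5.3.1 made (background subtraction with spatial detrending, LOWESS dye normalization within each array, surrogate values for dim spots). The deposited log10 ratio of Cy5 over Cy3 comes from the same program and served as an alternative. Log2 ratios in the authors' deposited lists cover selected probes only and were not used.

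Log2 ratios of processed signals, turned by the dye labels, were tested by limma 3.58.1 (R 4.3.3) for a mean other than 0 (Benjamini-Hochberg, threshold 0.05). Outlier spots were left out, spots of a probe were averaged within an array, and probes were kept where 1 or more arrays had either genotype well above background (27724 tested, 13415 dim). The array number limits precision. Saturated spots numbered 0. Log2 ratios correlated across probes, which are not independent replicates, at 0.689 and 0.703 between arrays of one dye orientation and at 0.445 to 0.489 between orientations. Genes were matched by symbol, with older names and accessions for the lists, and sequences come from the array files and RefSeq (GRCm38.p6 start regions). Python 3.11.15 (numpy 2.4.6, pandas 2.3.3, matplotlib 3.10.9) drew the figures, and jsonlite 2.0.0 and data.table (version 1.17.8) read the files.

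The members and gene lists were chosen with earlier results of these data known. Named genes are the family, Stmn1, up to 4 called genes of each pathway list, and Igfbp1, Insr, Irs1, Pappa and Stc2. Pik3r1 and Stat5b, and the cell markers and reference genes named with a value, were chosen after their values were seen. Alternatives were normexp (offset 50) with loess, the log10 column, median centring, other filters, outlier spots kept, a dye coefficient, averaged dye-swapped pairs, the methods' t-test, each array left out and a gene's second brightest probe.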

Additional observations from a re-analysis of the deposited data

How the results depend on the processing

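The IGF family probes called higher numbered 9 and were 7 to 8 with 1 array left out, 5 with normexp background correction and loess, 11 with a dye coefficient and 7 to 9 under the other alternatives. Those called lower numbered 0 and were 3 with a dye coefficient, 2 with replicates 1 and 4, and 2 and 3, averaged, 1 with normexp and loess, and 0 under the others, each array left out included. Pathway genes called higher numbered 4, but 1 with normexp and loess and 1 to 2 with 1 array left out. Those called lower numbered 3, and 2 to 4 under the alternatives. Leaving out 1 array left 1450 to 1647 probes of all called higher and 1338 to 1529 lower, against 3094 and 3082. Normexp and loess called 990 of all 27724 probes higher and 1143 lower. A dye coefficient called 5356 of 27428 higher and 5346 lower. No family probe changed the sign of its mean. With 1 array left out, Insr ranged between -0.118 and 0.0877 and Irs1 between -0.0326 and 0.018. Over 376 values of single probes under alternatives, 327 kept direction and side of the threshold, 38 lost a call, 8 gained one and 3 reversed. Beside the losses given above, normexp and loess ended the calls of Stc2 (0.11), Pik3r2 (0.33) and Adam12 (0.23). Testing without a filter gave adjusted p-values of 0.0542 for Igf1 A_52_P536434, 0.0899 for Stc2 and 0.0542 for Igf2bp1. The methods' t-test gave 0.089 for Igf1 A_52_P306327, 0.0587 for Igf2bp1, 0.063 for Adam12 and 0.0523 for Stmn1 A_51_P495641. With replicates 1 and 4, and 2 and 3, averaged, they were 0.0752 for Igf1 A_52_P306327 and 0.0427 for Igfbp4 A_52_P257502. The cause of these changes was not tested. Leaving out 1 array unbalances the dyes and leaves 3 arrays. The test is itself paired, since each ratio is taken within an array that holds both genotypes, and no further block by replicate number could be fitted.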
